A study of Rattus norvegicus with 11 samples.

Results

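The 10 genes described here carry dietary fat from the gut lumen through the enterocyte into the lymph: Cd36, Fabp1, Fabp2, Rbp2, Dgat1, Mttp, Apob, Apoa1, Apoa4 and Apoc3. They were chosen by gene symbol, and all 10 were found among 24481 genes with a read count. RNA came from ileum of male SD rats aged 6 to 8 weeks. Control rats (3 libraries) received vehicle by intraperitoneal injection; their labels mention a control plasmid, and the sources do not say whether they were operated on. SAP rats (4 libraries) had severe acute pancreatitis, caused by 3% sodium taurocholate injected backwards into the pancreatic duct at 0.1 ml per 100 g, and then the same vehicle; their titles mention oil. JZL184 rats (4 libraries) had the same SAP and received 10 mg/kg of JZL184, an inhibitor of monoacylglycerol lipase (MAGL), the enzyme that cleaves monoacylglycerol. The injection was given 24 h after surgery and ileum was taken 24 h after the injection. The comparisons ask how SAP, and JZL184 given during SAP, relate to RNA levels in the ileum. The study counts each library as a separate sample of its group, and p-values measure the spread between these samples.

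Dietary triglyceride is cleaved in the lumen to fatty acids and monoacylglycerol, which enterocytes take up. Binding proteins carry the lipids through the cytosol, enzymes of the endoplasmic reticulum join them to triglyceride again, and the triglyceride is loaded onto a core apolipoprotein to form a chylomicron. Chylomicrons gain further apolipoproteins at their surface and leave through lymph vessels. Most fat is absorbed in the proximal small intestine, while the distal ileum is the main site of bile acid uptake.

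Several libraries stood apart from the rest of their group, and results are given with and without them. The library labelled JZL184 3 had the epithelial marker Epcam at an FPKM (reads scaled by gene length and library size) of 3249, inside the range of 2220 to 3814 in the other 10 libraries. In that library, Fabp6, the ileal bile acid binding protein, was at 79.9, against 410 to 21819 in the others, and the brush border enzyme Anpep was at 8.51, against 66.1 to 1164. Car1, a carbonic anhydrase of the colon, was at 478 in it, at 24.5 in JZL184 library 2 and at 0.17 to 0.79 in the other 9. JZL184 library 1 had the proximal markers Lct (lactase) at 44.5 and Gata4 at 7.73, and SAP library 2 had them at 7.58 and 3.65. In all other libraries they were at no more than 3.51 and 0.34. Other proximal markers were mixed in JZL184 library 1. Slc2a2, at 18.4, and the member Fabp1 were also highest there. Adh1, Cybrd1 and Slc40a1, at 3.36, 0.40 and 0.74, were below every control library, and Cyp2c6v1 was close to absent in all libraries. JZL184 library 1 also held the Fabp6 value of 410, while all libraries but it and JZL184 library 3 had at least 3079. The ileal marker Slc10a2 was at 9.24 in JZL184 library 1, 4.24 in JZL184 library 3 and 34.9 to 136 elsewhere. The distal ileum markers Slc51a, Slc51b, Amn, Cubn and Fgf19 lay inside the range of the SAP libraries in JZL184 library 1. SAP libraries 1 and 2 showed a trend with gene length that is described with the results for Mttp and Apob. SAP library 2 also held 20 reads on 3 genes of the Y chromosome, against 1222 to 4665 elsewhere. The part of these features in the results below was not tested, apart from the values without these libraries. Hepatocyte contamination was checked because the liver also makes most of these apolipoproteins: 11 of 12 hepatocyte markers were found, Alb (albumin) was at no more than 0.33, and their summed FPKM was 7.04 to 12.1 in control, 12.8 to 93.8 in SAP and 1.24 to 68.4 in JZL184 libraries. Most of that sum, except in JZL184 library 3, was Fga, a fibrinogen chain, and Cps1, a urea cycle enzyme that enterocytes also make. Fga was at 0.55 to 0.69 FPKM in control, 3.50 to 39.7 in SAP and 0.36 to 54.0 in JZL184 libraries, while the fibrinogen chains Fgb and Fgg were at no more than 0.41 in any library.

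Levels of the 10 genes spanned the whole range of the ileum. Apoa1 was among the most abundant protein-coding RNAs, at rank 3 to 5 in control libraries and rank 1 in JZL184 libraries 2 and 4, and Fabp1 and Fabp2 were at rank 3 to 9 in control libraries. Rbp2 and Apoa4 had control means of 675 ± 102 and 350 ± 79.5 FPKM (SD, n = 2, since control libraries 1 and 2 agreed to near sampling noise and were counted as 1 sample). Dgat1, Mttp, Apob and Apoc3 followed at 58.0 ± 4.90, 20.1 ± 6.62, 14.4 ± 5.40 and 4.99 ± 0.81 FPKM. Cd36 was close to absent, at 0.04 ± 0.04 FPKM. Together the 10 genes took 1.73% to 1.98% of all reads in control, 0.53% to 1.72% in SAP and, apart from library 3, 2.75% to 3.08% in JZL184 libraries. In JZL184 library 3 they took 0.11%.

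**Figure D1:**
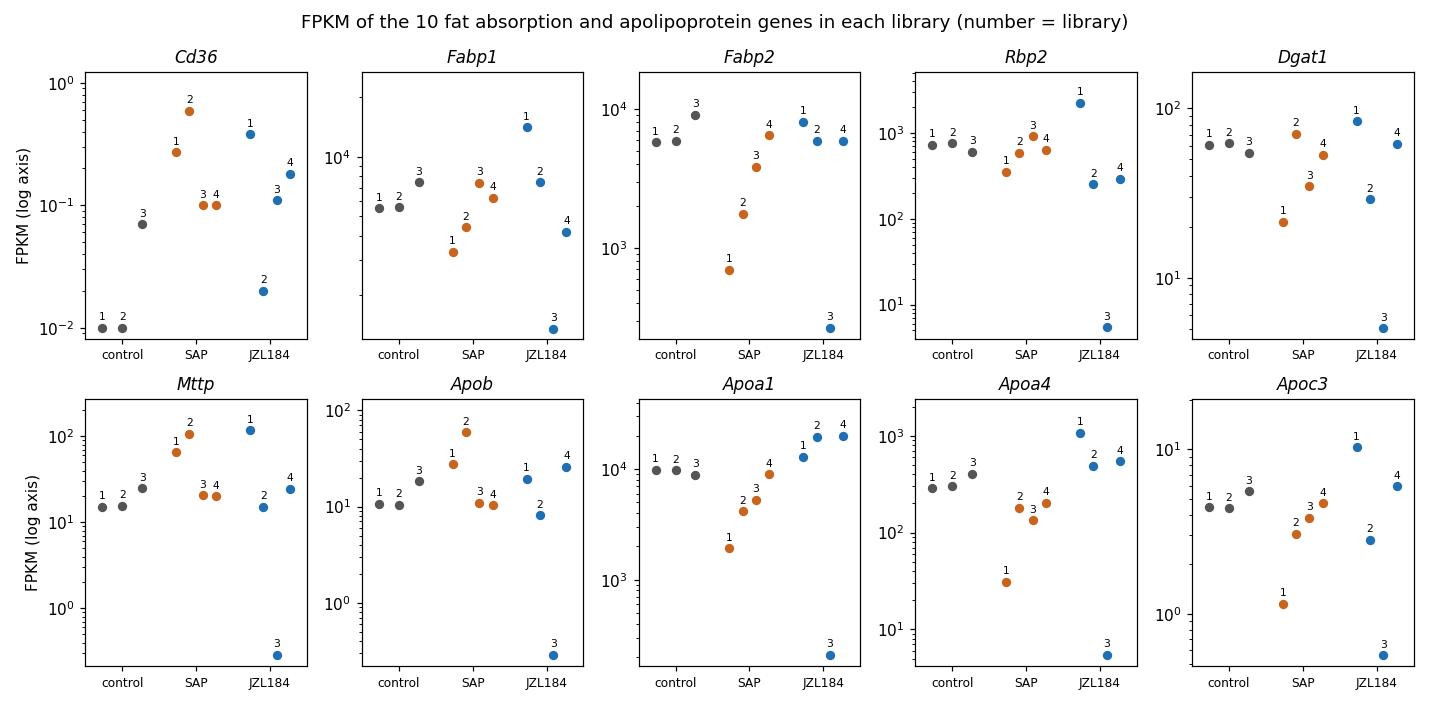
Each panel plots 1 gene, with FPKM on a log axis and every library as a numbered point, for the control, SAP and JZL184 groups. JZL184 library 3 has the lowest value of all 11 libraries for every gene but Cd36, and Apoa1 and Apoa4 in JZL184 libraries 1, 2 and 4 lie above all control and SAP libraries.

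None of the 10 genes was called in any of the 3 comparisons, where a call needs an adjusted p below 0.05 and a change of more than 2-fold in either direction. By edgeR, 0.0% of 16029 genes tested were called between SAP and control, 0.0% of 15308 between JZL184 and SAP, and 2.16% of 15916 between JZL184 and control. At an unadjusted p below 0.05, edgeR had 1457 genes for SAP against control and 3267 for JZL184 against SAP. DESeq2 called none of the 10 either, while it called 0.894%, 5.35% and 8.07% of genes in the same order of comparisons. The spread within groups was wide: the SD was 34.4% to 87.2% of the mean in SAP and 66.4% to 149% in JZL184.

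Against control, 7 of the 10 genes had a lower fitted value in SAP, and their median log2 fold change was -0.48, beside 0.06 over all genes tested. In JZL184 against SAP, 7 of 10 were higher with a median of 0.35, beside -0.05 over all genes. JZL184 against control gave 5 higher and 5 lower, with a median of -0.01 beside 0.08. These comparisons share libraries, so their directions are not independent of each other. The FPKM of SAP and control did not overlap for Apoa4, which was lower, and for Cd36, which was higher; over all genes tested, 8.65% were lower and 13.4% higher without overlap. No member was without overlap in JZL184 against SAP, where 6.53% of all genes were lower and 4.70% higher, nor in JZL184 against control, where 18.1% and 18.5% were.

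Cd36, a fatty acid translocase of the plasma membrane, was the only uptake gene among the 10. It had 1, 1 and 7 reads in the control libraries, 31, 60, 9 and 10 in SAP libraries 1 to 4, and 41, 2, 10 and 16 in JZL184 libraries 1 to 4. SAP libraries were thus all above the control libraries, with the highest values in libraries 1 and 2, and JZL184 libraries overlapped both groups. The fitted log2 fold change was 2.61 ± 1.05 (SE) for SAP against control (edgeR, adjusted p = 0.459), and exact permutation of FPKM gave p = 0.133, the smallest value that 4 against 2 samples allow. With 3 control samples in DESeq2, which counts both near-duplicates, Cd36 was called (2.88, adjusted p = 0.0318), as were 6.16% of all genes. JZL184 against control gave 2.14 ± 1.12 and JZL184 against SAP -0.42 ± 0.76. Cd36 is also made by adipocytes, endothelium and macrophages. Summed FPKM of 9 adipocyte markers was 254 to 443 in control, 271 to 763 in SAP and 490 to 821 in JZL184. That of 6 endothelial markers was 20.7 to 22.5, 28.3 to 35.0 and 27.8 to 36.9. For 6 macrophage markers it was 297 to 348, 136 to 363 and 84.5 to 240, most of it from C1qa and C1qb. Of these 6, 4 had a positive and 2 a negative log2 fold change for SAP against control, with a median of 0.59. For JZL184 against SAP, 1 was positive and 5 were negative. The part of these cell types in the Cd36 reads was not tested.

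All 3 cytosolic binding proteins, Fabp1, Fabp2 and Rbp2, had a promoter among the reference sequences. Promoters from RefSeq (GRCr8) covered 5 of the 10 members (Cd36, Fabp1, Fabp2, Rbp2 and Apoa4); Dgat1, Mttp, Apob, Apoa1 and Apoc3 are named only. The 250 bases before the annotated start are shown for the 4 of them that were well expressed, because Fabp2 and Apoa4 varied together across samples (Pearson r = 0.86 without JZL184 library 3) more than Rbp2 did with either (r = 0.31 for both). Capitals mark matches to 4 motifs searched on both strands: CAAAGTCCA and CAAAGGTCA, elements of the kind that HNF4 and dimers of the retinoid X receptor bind, AGATAA, which zinc finger factors such as GATA4 bind in enterocytes, and TATAAA, a core promoter element that sets where transcription starts. Each line reads 5′ to 3′ on the strand of the gene.

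Fabp1, chr4:104749090-104749339, + strand: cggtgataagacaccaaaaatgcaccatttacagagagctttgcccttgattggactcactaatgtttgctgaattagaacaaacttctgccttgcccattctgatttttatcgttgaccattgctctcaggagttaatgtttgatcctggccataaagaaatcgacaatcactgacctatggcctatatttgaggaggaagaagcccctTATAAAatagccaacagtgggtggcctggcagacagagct

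Fabp2, chr2:213724379-213724628, + strand: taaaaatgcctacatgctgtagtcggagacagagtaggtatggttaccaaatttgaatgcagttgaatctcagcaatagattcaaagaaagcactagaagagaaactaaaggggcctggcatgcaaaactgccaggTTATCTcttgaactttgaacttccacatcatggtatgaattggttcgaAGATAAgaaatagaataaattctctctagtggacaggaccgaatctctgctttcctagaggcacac

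Rbp2, chr8:107963292-107963541, + strand: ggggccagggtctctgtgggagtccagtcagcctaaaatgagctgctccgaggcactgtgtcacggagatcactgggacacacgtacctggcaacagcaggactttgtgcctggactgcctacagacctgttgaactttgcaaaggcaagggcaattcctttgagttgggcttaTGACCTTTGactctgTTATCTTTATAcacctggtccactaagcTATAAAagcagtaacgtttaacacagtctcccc

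Apoa4, chr8:55435529-55435778, + strand: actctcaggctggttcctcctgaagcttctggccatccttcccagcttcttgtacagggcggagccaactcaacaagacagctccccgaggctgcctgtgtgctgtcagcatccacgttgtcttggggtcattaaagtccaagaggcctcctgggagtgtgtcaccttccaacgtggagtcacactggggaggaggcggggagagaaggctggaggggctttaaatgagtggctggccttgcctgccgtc

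Rbp2 held the most matches. It had CAAAGGTCA reversed (TGACCTTTG) from 76 bases before the start, AGATAA reversed from 61, TATAAA reversed from 56, which shares 1 base with the AGATAA match, and TATAAA from 33. Fabp2 had AGATAA from 66 bases before the start and reversed from 114. Fabp1 had TATAAA from 40, Cd36 had TATAAA reversed from 175, and Apoa4 had none of the 4. Over 33469 promoters, 0.338% held CAAAGTCCA, 0.376% CAAAGGTCA, 10.3% AGATAA and 12.9% TATAAA in the same window. A match describes these letters only.

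Fabp1, the liver-type fatty acid binding protein, was at 5491, 5563 and 7430 FPKM in the control libraries. SAP libraries 1 to 4 had 3303, 4408, 7417 and 6226, and JZL184 libraries 1 to 4 had 14085, 7435, 1357 and 4184. The groups overlapped, and the highest and the lowest value were both in the JZL184 group. Its log2 fold changes were -0.42 ± 0.43 for SAP against control, 0.47 ± 0.62 for JZL184 against SAP and 0.03 ± 0.74 for JZL184 against control (adjusted p = 0.613, 0.664 and 0.981). Without SAP libraries 1 and 2 the first of these was 0.01.

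Fabp2, the intestinal fatty acid binding protein, which is made by absorptive enterocytes, was at 5745, 5901 and 9126 FPKM in the control libraries. In SAP libraries 1 to 4 it was at 697, 1758, 3840 and 6459, so 3 of 4 were below every control library and SAP library 4 lay between them. JZL184 libraries 1, 2 and 4 had 8101, 5888 and 5907, inside the range of the control libraries, and library 3 had 266. The SAP mean was 2.34-fold below the control mean (log2 fold change -1.32 ± 0.78, adjusted p = 0.463). Without SAP library 4, DESeq2 called Fabp2 (-2.02, adjusted p = 0.0319) and Apoa1 (-1.52, adjusted p = 0.0386), along with 6.00% of all genes. Without SAP libraries 1 and 2 the edgeR value was -0.58 ± 0.36. In JZL184 against SAP it was 0.76 ± 0.91, and 1.16 ± 0.67 without JZL184 library 3, with adjusted p of 0.632 and 0.397. Fabp2 overlaps a long non-coding RNA, LOC102550474, which had 5 to 56 reads per library, in the GRCr8 annotation.

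Rbp2, the cellular retinol binding protein of the enterocyte, was at 735, 759 and 603 FPKM in the control libraries and at 353, 586, 920 and 643 in SAP libraries 1 to 4. In JZL184 libraries 1 to 4 it was at 2251, 253, 5.43 and 295. JZL184 library 1 was thus above, and the other 3 below, every control and SAP library. SAP and control overlapped (-0.27 ± 0.43, adjusted p = 0.744). JZL184 against SAP gave 0.24 ± 1.11, and the sign turned in 6 of 20 alternatives, among them without JZL184 library 1 (-1.52) and with limma-voom (-1.42). Without JZL184 libraries 1 and 3, edgeR called Rbp2 lower than in control (-1.25 ± 0.33, adjusted p = 0.0179). That fit, chosen after the values were seen, has 2 samples against 2 and calls 19.4% of all genes. It also called Apoa1 higher (1.15 ± 0.33, adjusted p = 0.0270).

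Dgat1, which adds the last fatty acid to triglyceride, was at 61.0, 62.0 and 54.6 FPKM in the control libraries, at 21.3, 70.8, 34.7 and 53.4 in SAP libraries 1 to 4, and at 83.9, 29.0, 5.03 and 61.8 in JZL184 libraries 1 to 4. All 3 groups overlapped. The fitted values were -0.54 ± 0.47 for SAP against control, 0.14 ± 0.68 for JZL184 against SAP and -0.42 ± 0.81 for JZL184 against control, with adjusted p of 0.565, 0.915 and 0.771.

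Mttp and Apob start the assembly of chylomicrons. Mttp, the microsomal triglyceride transfer protein, was at 15.2, 15.7 and 24.8 FPKM in the control libraries. In SAP it was at 65.2 and 106 in libraries 1 and 2 and at 20.6 and 20.1 in libraries 3 and 4, the latter both inside the control range. JZL184 libraries 1 to 4 had 118, 15.2, 0.29 and 24.7. Apob, the core protein of the particle, was at 10.7, 10.4 and 18.2 in the control libraries, at 27.5, 58.8, 10.9 and 10.3 in SAP libraries 1 to 4, and at 19.5, 8.12, 0.29 and 25.7 in JZL184 libraries 1 to 4. Both genes were thus higher than in any control library in SAP libraries 1 and 2 and near control in SAP libraries 3 and 4.

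For SAP against control, the log2 fold change of Mttp was 1.19 ± 0.69 (adjusted p = 0.462) and that of Apob 0.69 ± 0.69 (adjusted p = 0.607). Without SAP libraries 1 and 2 they were -0.03 ± 0.26 and -0.49 ± 0.29. In SAP libraries 1 and 2, the median log2 ratio to the control mean was 0.63 and 0.67 over 3975 genes longer than 4000 bases, and -0.75 and -0.78 over 1057 genes shorter than 1000. In the other samples these medians lay between -0.09 and 0.25 and between -0.28 and 0.05. From the counts and FPKM, Apob is 15259 and Mttp 4348 bases long, while Apoa1, Fabp1 and Fabp2 are 967, 532 and 614. Offsets that take out this trend left Mttp at 0.95 and moved Apob to -0.10, and gave -1.03 for Fabp2, -0.65 for Apoa1, -1.22 for Apoa4 and -0.32 for Apoc3 in the same comparison. In JZL184 against SAP, Mttp gave -0.26 ± 1.12 and Apob -0.77 ± 0.96, and neither sign held in all alternatives.

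The 3 surface apolipoproteins differ in level but ranked the SAP libraries alike, apart from libraries 2 and 3 for Apoa4. Apoa1, the main apolipoprotein of high density lipoprotein, which the gut also secretes, was at 9823, 9790 and 8841 FPKM in the control libraries. SAP libraries 1 to 4 had 1919, 4144, 5318 and 8991, and JZL184 libraries 1 to 4 had 12906, 19658, 209 and 20162. JZL184 libraries 1, 2 and 4 were all above the 7 control and SAP libraries, and library 3 was below them all. Apoa1 had a log2 fold change of -0.999 ± 0.594 for SAP against control (adjusted p = 0.463) and of 1.54 ± 0.998 for JZL184 against SAP (adjusted p = 0.375).

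Apoa4, an apolipoprotein that the intestine makes in response to fat, was at 287, 300 and 406 FPKM in the control libraries. In SAP libraries 1 to 4 it was at 31.2, 180, 134 and 202, all below the control libraries. JZL184 libraries 1, 2 and 4 had 1082, 490 and 544, above all control and SAP libraries, and library 3 had 5.48. The SAP mean was 2.56-fold below the control mean, with a log2 fold change of -1.49 ± 0.64 (p = 0.0483 before adjustment, adjusted p = 0.459; exact permutation p = 0.133). It was -1.10 ± 0.31 without SAP libraries 1 and 2 (adjusted p = 0.242), and it was negative in all 19 alternatives. JZL184 against SAP gave 2.08 ± 1.06 (adjusted p = 0.279; exact permutation p = 0.143).

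Without JZL184 library 3, Apoa4 and Apoa1 were 5.16-fold and 3.45-fold higher in JZL184 than in SAP, with no overlap; in that same direction 5.53% of all genes did not overlap. The edgeR values were then 2.49 ± 0.59 and 1.95 ± 0.56, with adjusted p of 0.147 and 0.182. DESeq2, without that library, called both (2.50, adjusted p = 0.00197, and 1.97, adjusted p = 0.0140), along with 3.39% of all genes. Leaving this library out was planned for edgeR and added for DESeq2 after the data were seen. Against control, without library 3, Apoa4 gave 0.99 ± 0.38 and Apoa1 0.93 ± 0.39 (edgeR, adjusted p = 0.144 and 0.166).

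Apoc3, an inhibitor of lipoprotein lipase that rides on chylomicrons, was far lower, at 4.44, 4.38 and 5.56 FPKM in the control libraries. It was at 1.15, 3.07, 3.85 and 4.70 in SAP libraries 1 to 4 and at 10.3, 2.81, 0.56 and 5.94 in JZL184 libraries 1 to 4. The groups overlapped, with fitted values of -0.77 ± 0.56 for SAP against control and 0.72 ± 0.74 for JZL184 against SAP (adjusted p = 0.507 and 0.575). Apoa1, Apoc3 and Apoa4 lie next to each other on rat chromosome 8 with Apoa5, which was at 0.02 to 0.36 FPKM.

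**Figure D2:**
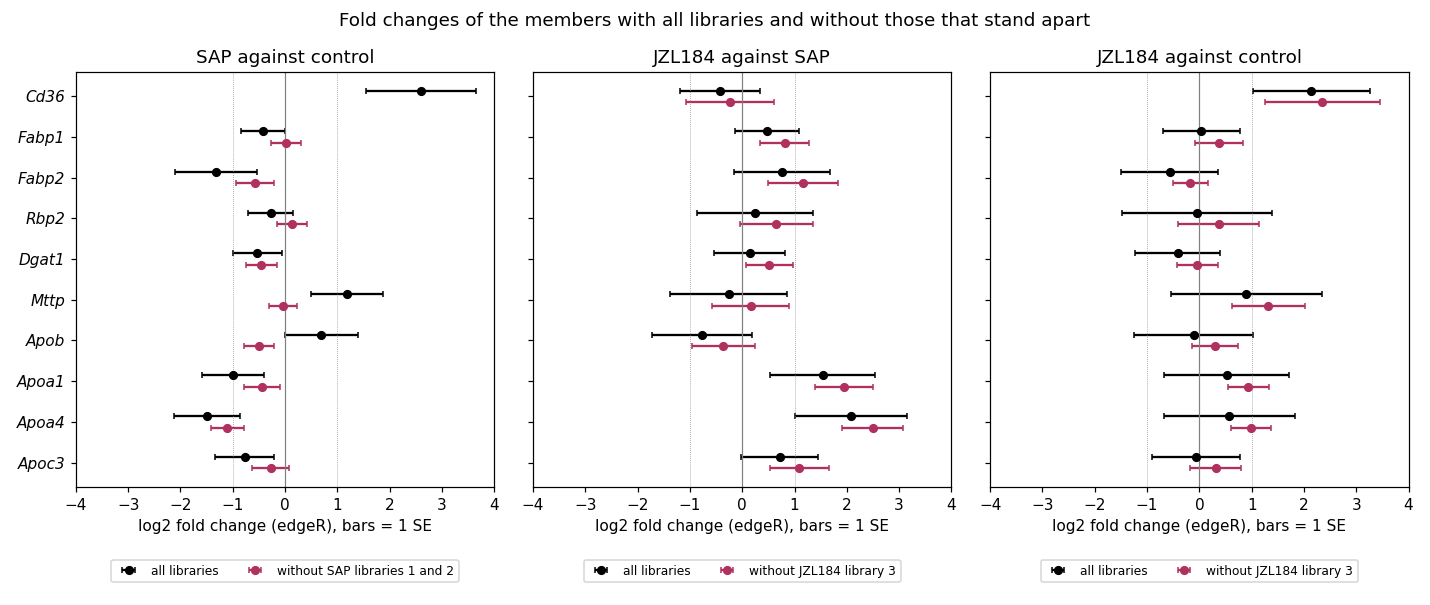
Each panel plots the edgeR log2 fold change of the 10 genes in 1 comparison, with bars of 1 SE, for all libraries (black) and without libraries that stood apart (red); dotted lines mark 2-fold. Apoa4 and Apoa1 keep their side of 0 in the first and second panel, at -1.49 and -0.999 and at 2.08 and 1.54 with all libraries. Fabp1, Rbp2, Mttp and Apob change side in the first panel without SAP libraries 1 and 2, and Cd36 was not tested there.

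Since the ileum wall holds many cell types, fewer enterocytes and less RNA per enterocyte cannot be told apart in these libraries. Each gene was therefore also set against 14 epithelial genes, as its log2(FPKM + 1) minus their mean. The mean of the epithelial genes was 9.05 and 9.34 in the 2 control samples, 8.51 to 9.02 in SAP and 8.48 to 8.93 in JZL184. This mean was thus below both control samples in all SAP and JZL184 libraries. Its genes did not move together: for SAP against control, 11 of the 14 had a negative and 3 a positive log2 fold change. Cdh1 and Cdh17 were higher in every SAP library than in any control library. The part of the length trend of SAP libraries 1 and 2 in this mean was not tested. Relative to the epithelial genes, the median difference over the 10 genes was 0.02 for SAP against control, 0.02 for JZL184 against SAP and -0.20 for JZL184 against control. Apoa4 was at -0.76 ± 0.53 in control (SD, n = 2), -1.95 ± 1.17 in SAP (n = 4) and -0.97 ± 3.28 in JZL184 (n = 4), and the difference of -1.19 between SAP and control had an exact permutation p of 0.267. Fabp2 differed by -1.20 (p = 0.267, exact permutation) and Mttp by 1.47 (p = 0.400, exact permutation) in that comparison. Cd36 alone did not overlap between groups on this scale, being higher by 0.70 in SAP and by 0.68 in JZL184 than in control (exact permutation p = 0.133 for each). For this gene the scale mostly shows the lower epithelial mean, since log2(FPKM + 1) is close to 0 at its level.

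**Figure D3:**
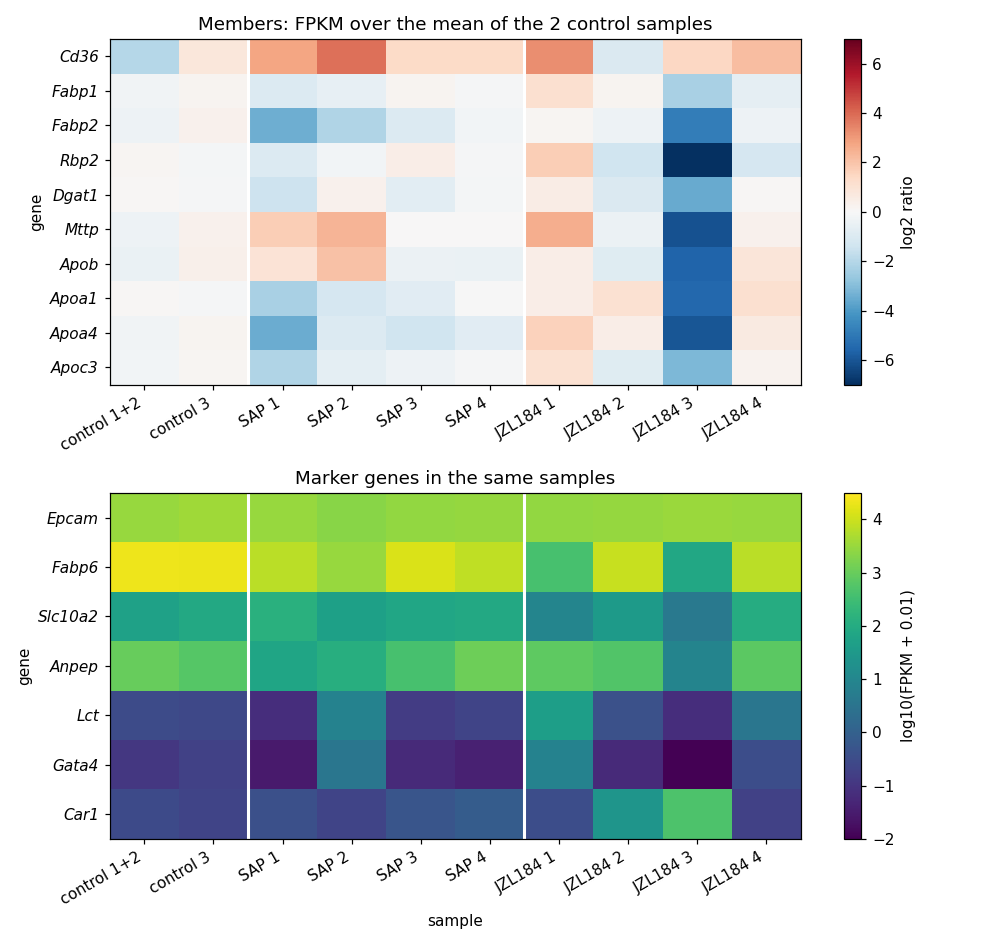
The upper map gives the log2 ratio of each gene to its mean over the 2 control samples, per sample; the lower map gives log10(FPKM + 0.01) of markers of epithelium (Epcam), ileum (Fabp6, Slc10a2), absorptive cells (Anpep), proximal gut (Lct, Gata4) and colon (Car1). JZL184 library 3 is below the control mean for 9 of 10 genes and has Car1 at 478, and JZL184 library 1 is above it for all 10 and has Lct at 44.5.

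Against the mean of the 2 control samples, the median ratio of the 10 genes was 0.44, 0.77, 0.77 and 0.95 in SAP libraries 1 to 4, and 2.12, 0.66, 0.03 and 1.21 in JZL184 libraries 1 to 4. The 2 control samples themselves were at 0.85 and 1.15. JZL184 library 1 was the only sample with all 10 genes above the control mean, 6 of them by more than 2-fold, and it was also the library with the highest Lct and Gata4. In JZL184 library 3, 9 genes were under 0.5 times the control mean, with Rbp2 at 0.008 and Apoa4, Mttp, Apob and Apoa1 at 0.014 to 0.022 times.

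Across the 10 samples, 34 of 45 pairs of members had a Pearson r above 0.5 on log2(FPKM + 1), with a median of 0.78. Without JZL184 library 3 this held for 18 of 45 pairs, the median was 0.33 and 15 pairs were below 0. Fabp2, Apoa1, Apoa4 and Apoc3 still varied together then, with r of 0.67 to 0.89 between them, for example 0.89 between Apoa1 and Apoa4. Mttp and Apob had an r of 0.78, and Cd36 had 0.94 with Mttp and 0.88 with Apob. Between the 2 sets, r was -0.54 to -0.41 for the pairs with Fabp2 or Apoa1 and -0.20 to 0.05 for those with Apoa4 or Apoc3. These values describe 9 or 10 samples that share a normalization and differ in the markers of gut region given above. The 2 sets also differ in length, with 614 to 1550 bases in the first and 3375 to 15259 in the second. The part of the length trend of SAP libraries 1 and 2 in these correlations was not tested.

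**Figure D4:**
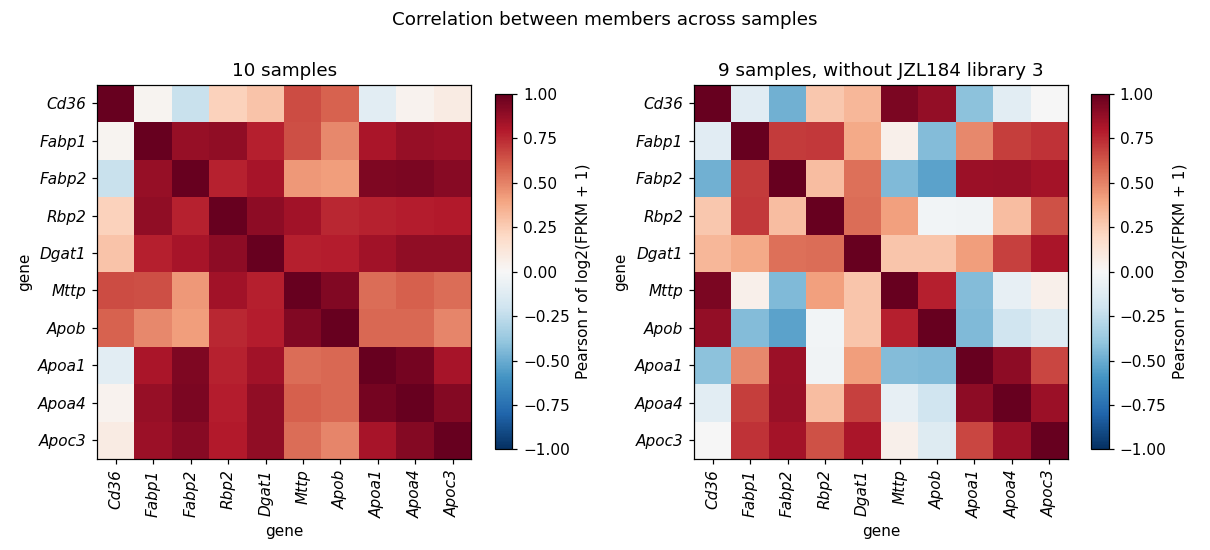
The maps show Pearson r of log2(FPKM + 1) for each pair of the 10 genes, over 10 samples on the left and over 9 without JZL184 library 3 on the right. The block of positive values on the left (34 of 45 pairs above 0.5) parts on the right into a set of Fabp2, Apoa1, Apoa4 and Apoc3 and a set of Cd36, Mttp and Apob, with 15 pairs below 0. The genes of the second set are longer than those of the first.

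The genes most like the mean z-score of the 10 members, among 11083 other genes, were Guca2b (r = 0.96), Prap1 (0.96), Gsta5 (0.96), Gsta2 (0.94) and B4galnt4 (0.93), over 10 samples. Guca2b encodes uroguanylin, a gut peptide hormone, and Gsta5 and Gsta2 are paralogs that encode glutathione transferases. Whether reads were split between these paralogs was not tested. Guca2b was at 163 and 163 FPKM in the 2 control samples, at 53.9, 139, 104 and 296 in SAP libraries 1 to 4, and at 567, 122, 4.51 and 327 in JZL184 libraries 1 to 4. All 5 had their lowest value in JZL184 library 3 and their highest in library 1.

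Other genes of fat handling were taken from lists of the pathway. Beside the most abundant genes of each list, genes that passed a test and Mogat2 are named, which were chosen after their values were seen. In uptake and activation, 14 of 14 genes were found and 12 to 14 tested. EdgeR called 1, Acsl4, an acyl-CoA synthetase that prefers polyunsaturated fatty acids, which was higher in JZL184 than in control (2.19 ± 0.37, adjusted p = 0.0289). DESeq2 called Slc27a2 higher in JZL184 than in SAP, Acsl4 higher and Acsl1 lower in JZL184 than in control, and no gene in SAP against control. Slc27a2 was close to absent, at no more than 0.02 FPKM in SAP libraries and at 0.14, 0.11, 1.37 and 0.70 in JZL184 libraries 1 to 4. The most abundant genes of the list were Dbi, the acyl-CoA binding protein, Scp2 and Acsl5. For SAP against control their values were -0.49 ± 0.38, -0.07 ± 0.29 and -1.05 ± 0.46, none of which passed. The list medians were -0.31 for SAP against control and 0.16 for JZL184 against SAP.

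In triglyceride and ester synthesis, 16 or 17 of 18 genes were tested and edgeR called none in any comparison, while DESeq2 called only Agpat1, lower in JZL184 than in control. Soat2, which esterifies cholesterol, was at 58.3 to 84.7 FPKM in control libraries, 66.2 to 207 in SAP libraries, and 110, 38.5, 0.81 and 74.4 in JZL184 libraries 1 to 4. Agpat2 and Gpat4, acyltransferases of the glycerol phosphate route, gave -0.55 ± 0.45 and -0.71 ± 0.45 for SAP against control. Mogat2, which acts before Dgat1 on monoacylglycerol, was at 10.4 to 14.0 in control libraries, 9.90 to 17.3 in SAP libraries, and 18.1, 1.39, 0.17 and 5.31 in JZL184 libraries 1 to 4. The list medians were -0.12 and 0.04 for SAP against control and JZL184 against SAP.

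In chylomicron assembly and secretion, 18 of 19 genes were tested and edgeR called none. DESeq2 called 1, A1cf, a cofactor of Apob mRNA editing, lower in JZL184 than in SAP. A1cf was at 2.03 and 3.63 FPKM in SAP libraries 1 and 2 and at no more than 0.34 in all other libraries. Apoe was at 731 to 787 FPKM in control, at 190, 320, 702 and 830 in SAP libraries 1 to 4, and at 720, 906, 1215 and 709 in JZL184 libraries 1 to 4, so that it was highest in the library in which Apoa1 was lowest. P4hb, the partner subunit of Mttp, and Pdia3 gave 0.29 ± 0.30 and -0.05 ± 0.34 for SAP against control. The list medians were 0.01 and 0.12.

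In lipid droplet and lipolysis, all 10 genes were tested, edgeR called none, and DESeq2 called Ces2c higher in JZL184 than in SAP and Plin2 higher in JZL184 than in control. Plin2, a coat protein of lipid droplets, was at 11.3 to 12.5 FPKM in control, 18.9 to 53.7 in SAP and 25.1 to 52.6 in JZL184 libraries. All SAP and JZL184 libraries were thus above control, as was the case for 13.4% and 18.5% of all genes tested. The most abundant genes, Ces1e, Plin3 and Pnpla2, gave -0.05 ± 0.49, -0.64 ± 0.37 and -0.77 ± 0.34 for SAP against control. In retinoid handling, 7 or 8 of 8 genes were tested, and Rbp4, the plasma retinol carrier, was lower in JZL184 than in control (-1.91 ± 0.30, adjusted p = 0.0251, edgeR and DESeq2). DESeq2 also called Rdh7 higher there, which was at 65.3 in JZL184 library 1 and at no more than 8.45 elsewhere. Isx, an intestinal homeobox factor that represses vitamin A formation, gave -0.85 ± 0.27 for JZL184 against control (adjusted p = 0.107).

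Of 24 transcriptional regulators, 22 to 24 were tested and edgeR called none; DESeq2 called Hnf4a, which drives many of these apolipoprotein genes, lower in JZL184 than in SAP. Hnf4a was at 57.6 to 59.5 FPKM in control libraries, at 132, 125, 59.4 and 53.9 in SAP libraries 1 to 4 and at 47.2, 15.9, 20.04 and 32.0 in JZL184 libraries 1 to 4. Hnf4a was thus lower in all JZL184 libraries than in any SAP library, as were 6.53% of all genes tested. It was above the control libraries by a wide margin only in SAP libraries 1 and 2, the libraries with the length trend. The part of Hnf4a in the levels of the members was not tested. Creb3l3, an activator of Apoa4 and other lipid genes, was at 36.2 to 49.6 in control libraries, 56.7, 200, 84.4 and 158 in SAP libraries 1 to 4 and 544, 160, 1.81 and 215 in JZL184 libraries 1 to 4. It was higher in all SAP libraries than in the control libraries, as were 13.4% of all genes tested. Its fitted values were 1.39 ± 0.55 for SAP against control and 1.01 ± 1.03 for JZL184 against SAP (adjusted p = 0.459 and 0.571). Cdx2, an intestinal homeobox factor, gave -0.58 ± 0.45 and 0.26 ± 0.39. The list medians were 0.23 and 0.18.

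Among the marker lists, edgeR called Krt19 of the epithelial list and Jchain of the lymphocyte list, both lower in JZL184 than in control, and no other marker. DESeq2 called more: for SAP against control, 4 of 5 neutrophil markers tested (Csf3r, Cxcr2, S100a8 and S100a9) and Fga, all higher. For JZL184 against control it called 4 of 14 epithelial markers lower (Krt19, Krt20, Krt8 and Vil1), 3 neutrophil markers, Fga, Slc26a3 and Retn higher, and Mep1a, Csf1r, Tagln, Agr2 and Jchain lower. For JZL184 against SAP it called Lep higher, Adgre1, Csf1r, Mgam, Clca1 and Jchain lower. Mgam was at 12.7 and 20.1 FPKM in SAP libraries 1 and 2 and at no more than 0.64 in all other libraries. Summed FPKM of 6 neutrophil markers was 0.89 to 2.06 in control, 8.05 to 79.7 in SAP and 12.6 to 246 in JZL184 libraries. That of 7 distal ileum markers was 22978 to 24401, 3703 to 15439 and 1043 to 11047. Fabp6 alone made up most of this sum in control and SAP libraries. The 7 markers did not move together: for SAP against control, 3 had a positive and 4 a negative log2 fold change. For JZL184 against control, 2 were positive and 5 negative.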

How the data were processed

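RNA of rat ileum was sequenced as stranded, paired-end libraries. Reads were trimmed and aligned with HISAT2 (build mRatBN7.2) by the authors, who deposited an unnormalized count of reads for each gene and FPKM, scaled by gene length and library size, with 2 decimals. For the counting tool, its strand setting and the annotation, the sources used here give nothing. The members and gene lists were chosen with earlier results of these data known.

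Total counts were 26341299 to 33847135 per library, so counting error was small beside the spread between libraries. Control libraries 1 and 2 differed far less than other pairs (chi-square per gene 2.81, against 77.48 to 563.03 for other pairs) and were counted as 1 sample: reads summed, FPKM averaged. Groups were compared in pairs by quasi-likelihood in edgeR 4.0.16 (R 4.3.3; TMM, minimum count 10), fitted on all genes and tested on simulated data. A call needed an adjusted p (Benjamini-Hochberg) below 0.05 and more than a 2-fold change either way. The study used DESeq2; DESeq2 1.42.0 and limma-voom (limma 3.58.1) were alternatives. FPKM were compared by two-sided exact permutation with scipy 1.17.1. Members were also set against 14 epithelial genes, as log2(FPKM + 1) minus the mean of those genes. Named were the 10 members, the 3 genes of highest mean FPKM in each pathway list (1 of these is not reported here), and the 5 other genes (mean FPKM of at least 1) most like the members. Promoters came from RefSeq (GRCr8). Other alternatives were another scaling, other filters, all groups in 1 fit, the replicate number as a block, offsets for gene length, no fold threshold, 3 control samples, and leaving out libraries.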

Additional observations from a re-analysis of the deposited data

Results flagged for a closer look

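In groups of 4 libraries, each gene was examined for a lowest or highest library whose gap to the next, over the range of the group, exceeded Dixon's 95% critical value, on FPKM and on log2(FPKM + 1). Of 40 such tests 4 met the limit, and chance gives about 1 in 20. Of these, 3 concern JZL184 library 3, which was lowest in its group on the log2(FPKM + 1) scale: Fabp2 at 8.06, Apoa1 at 7.72 and Apoa4 at 2.70. The same library was lowest of all 11 libraries for 9 of the 10 genes and had the colon gene Car1 at 478 FPKM. The remaining one is Rbp2, which at 2251 FPKM in JZL184 library 1 was far above the other 3 libraries of the group, at 5.43 to 295. That library also had the highest FPKM of Lct and Gata4.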

How the results depend on the processing

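No member was called in any comparison by edgeR in the reported fits, and this held in all but a few alternatives. One was called for SAP against control with DESeq2 and 3 control samples (1, Cd36), and 2 for JZL184 against control without JZL184 libraries 1 and 3 (Rbp2 and Apoa1), an alternative chosen after seeing the data. Leaving out each library in DESeq2, also added later, gave 0 to 2 called members for SAP against control (2 without SAP library 4), 0 to 2 for JZL184 against SAP (2 without JZL184 library 3) and 0 for JZL184 against control; without each library edgeR called 0 throughout. Of 183, 199 and 188 alternative values of single genes in SAP against control, JZL184 against SAP and JZL184 against control, 9, 20 and 31 had the opposite sign.

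For SAP against control, the log2 fold change turned with gene length offsets for Fabp1 (0.13), Rbp2 (0.16) and Apob (-0.10), and without SAP libraries 1 and 2 for Fabp1 (0.01), Rbp2 (0.13), Mttp (-0.03) and Apob (-0.49). For JZL184 against SAP it turned with limma-voom for Rbp2 (-1.42), without SAP libraries 1 and 2 for Cd36 (0.84), Rbp2 (-0.16), Mttp (0.96) and Apob (0.40), and without JZL184 libraries 1 and 3 for Rbp2 (-0.96). Leaving out 1 library gave -1.10 to 0.29 for Cd36, -0.06 to 0.82 for Fabp1, -1.52 to 0.65 for Rbp2, -0.25 to 0.52 for Dgat1 and -1.65 to 0.29 for Mttp. For JZL184 against control it turned with limma-voom for Fabp1 (-0.48), Mttp (-0.57), Apoa1 (-0.01) and Apoa4 (-0.31), with length offsets for Rbp2 (0.28) and Apoc3 (0.21), with 3 control samples for Apob (0.02), and without JZL184 libraries 1 and 3 for Fabp1 (-0.07) and Apob (0.28). Leaving out 1 library gave -0.51 to 0.38 for Fabp1, -1.82 to 0.37 for Rbp2, -0.53 to 1.31 for Mttp, -0.66 to 0.30 for Apob and -0.65 to 0.31 for Apoc3. The cause was not tested.

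Same-numbered samples were not paired: the correlations of their deviations were -0.45 to 0.12. With the replicate number as a block, 0 members were called in each comparison, also with length offsets. The block turned Rbp2 (-1.08) and Dgat1 (-0.30) in JZL184 against SAP, and Fabp1 (-0.17), Mttp (-0.42), Apoa1 (-0.81) and Apoa4 (-0.29) in JZL184 against control. The block with length offsets turned Fabp1 (0.29) and Rbp2 (0.17) in SAP against control, Fabp1 (-0.35), Rbp2 (-1.47), Dgat1 (-0.26) and Apoc3 (-0.08) in JZL184 against SAP, and Fabp1 (-0.03), Mttp (-0.43), Apoa1 (-0.61) and Apoa4 (-0.14) in JZL184 against control.

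Relative to the epithelial genes, the median difference over members was -0.19 to 0.24 for SAP against control, -0.34 to 0.50 for JZL184 against SAP and -0.78 to 0.65 for JZL184 against control over all alternatives, within the spread between samples; the limit of a mean FPKM of 10 removed none of the 14 genes. Depth limited Cd36 alone, with 1 to 60 reads per library.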
